A study of Chlamydomonas reinhardtii with 31 samples.

Results

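The cytosolic ribosomal protein genes described here were 43 listed loci of the green alga Chlamydomonas reinhardtii, matched to the deposited table by locus ID. The table held 42 of them among its 17301 genes, and Cre12.g535851 was absent. The list gave the large and small ribosomal subunits together. The table pairs no ID with a product, so the name of the family rests on the list, was not checked here, and the loci could not be ordered by subunit or role. They are named by ID for the same reason.

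Each ribosome of the cytosol carries many different proteins, most of them needed in equal numbers, and their genes lie in the nucleus. The proteins assemble with ribosomal RNA into a large subunit, which joins amino acids, and a small subunit, which reads the messenger RNA. Ribosomes hold much of the nitrogen of a growing cell, and nitrogen-starved Chlamydomonas cells stop dividing and are known to break down part of their ribosomes. The level of a ribosomal protein transcript is not a count of ribosomes.

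Total RNA was sequenced from cultures that were grown in TAP medium in the light, washed and moved to TAP medium without ammonium chloride. All groups shared this treatment, and the 0 h samples stand for its start. The strains were CC-4349, called wild type in the study, sta6 (CC-4348), the starchless mutant, and 3 independent STA6 strains, STA6-C2 (CC-4565), STA6-C4 (CC-4566) and STA6-C6 (CC-4567), called rescued strains here. A first set of 16 samples held CC-4349 and sta6 at 0, 0.5, 2, 4, 8, 12, 24 and 48 h. A second set of 15 samples held all 5 strains at 0.5, 4 and 48 h. There was 1 sample per strain, time and set, so tests took strains or neighbouring times as replicates, and p-values measure the spread between such samples.

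Levels are FPKM, fragment numbers scaled for transcript length and library size, so levels of different genes are compared per length. Summed FPKM ran from 552025 to 889042 per deposited column. FPKM is relative to each library, so more ribosomal protein transcript and less of other RNA cannot be told apart. First-set samples had a pair of deposited columns, which were averaged. In first-set CC-4349 the columns fell apart in the pattern among the 42 genes. Both 0.5 h columns, the second 4 h column and the first 8 h column differed from each other by an SD across genes of 0.052 to 0.14 on the log2 scale, and from the other 12 columns by 0.20 to 0.40. The other 12 differed among themselves by 0.063 to 0.26. Correlations, the tests of 12 h and later against the start, and the comparison of late with middle times are given with and without these libraries. The tests of 0.5, 4 and 8 h against the start were not repeated without them. Neither was the test of sta6 against CC-4349 that joined both sets.

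**Figure D1:**
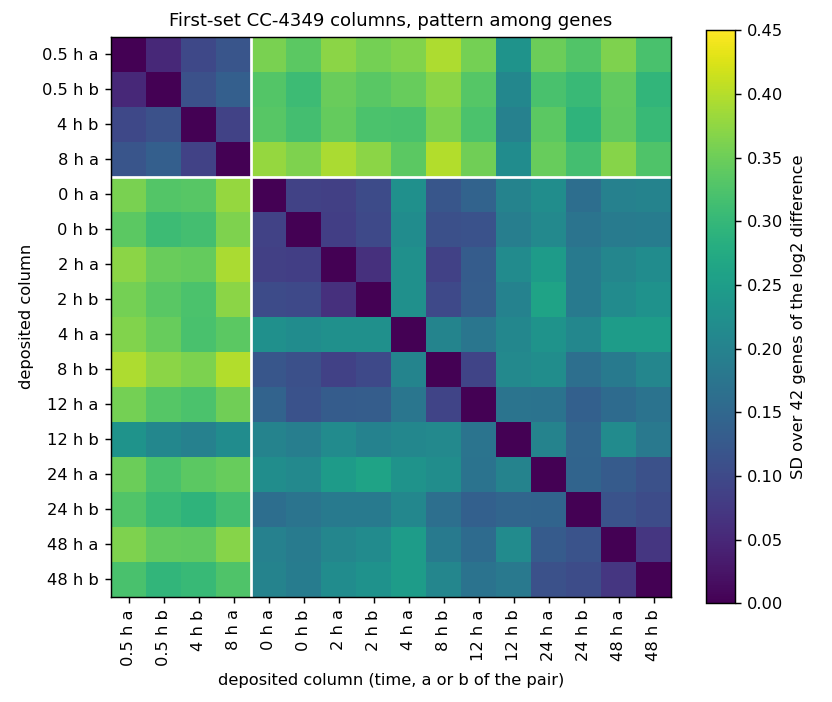
SD across the 42 genes of the log2 difference between each pair of first-set CC-4349 columns (a and b are the first and second column of a sample; colour scale in log2 units). The 4 columns left of and above the white lines lie within 0.14 of each other and at least 0.198 from the other 12. The second 12 h column lies between, 0.198 to 0.231 from the 4 and 0.146 to 0.217 from the remaining columns.

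Cre03.g203450 shows the split. In the first 8 h column it exceeded the second by 1.48 on the log2 scale, while Cre09.g400650 exceeded it by 0.19. After the median of the 42 genes was set equal in every column, the 4 columns lay above the other 12 by 0.72 in Cre03.g203450, 0.70 in Cre06.g290950 and 0.62 in Cre02.g143050. They lay below them by a difference of -0.43 in Cre09.g400650, -0.37 in Cre14.g630100 and -0.36 in Cre11.g480150. The 4 columns were also nearer to the first-set sta6 columns, with a median SD of 0.24 against 0.37 for the other 12. The sta6 columns differed among themselves by 0.047 to 0.31. What set the 4 CC-4349 columns apart was not tested.

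These genes were among the most abundant transcripts in every sample. Between 35 and 42 of them ranked in the top 100 of all genes, and no value in any column was 0. The highest mean level over the 31 samples was 7696 ± 3392 FPKM (SD) in Cre06.g272800, followed by 5516 ± 2560 in Cre02.g143050 and 5409 ± 1914 in Cre12.g494050. The lowest was 625 ± 222 FPKM in Cre12.g510450. Next came Cre14.g630100 with 1755 ± 701 and Cre12.g520500 with 2095 ± 764 FPKM. Cre12.g510450 stood alone at the low end: its highest value, 1098 FPKM, lay below the mean of every other member. Elsewhere in the order the gaps between neighbours were smaller than the SD over samples.

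Together the 42 genes held a growing share of the summed FPKM as starvation went on. In first-set sta6 the share was 13.7% at 0 h, 13.7% at 0.5 h, 14.2% at 2 h, 15.6% at 4 h, 20.0% at 8 h, 23.3% at 12 h, 27.1% at 24 h and 26.9% at 48 h. In first-set CC-4349 it was 12.9% at 0 h, 16.3% at 0.5 h, 12.6% at 2 h, 18.6% at 4 h, 18.3% at 8 h, 17.3% at 12 h, 19.1% at 24 h and 20.2% at 48 h. So sta6 held steady to 4 h and then climbed to 24 h, whereas CC-4349 moved up and down before 8 h and ended lower.

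Repeat columns set how far the CC-4349 course can be read. At 8 h the pair gave 21.1% and 14.9%, and at 4 h 20.2% and 16.6%. Both sta6 columns climbed, from 12.8% and 14.5% at 0 h to 26.5% and 27.6% at 24 h. The first sta6 column lay below the second at every time up to 24 h, by a median log2 difference across the genes of -0.35 at 0 h and -0.17 at 24 h.

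**Figure D2:**
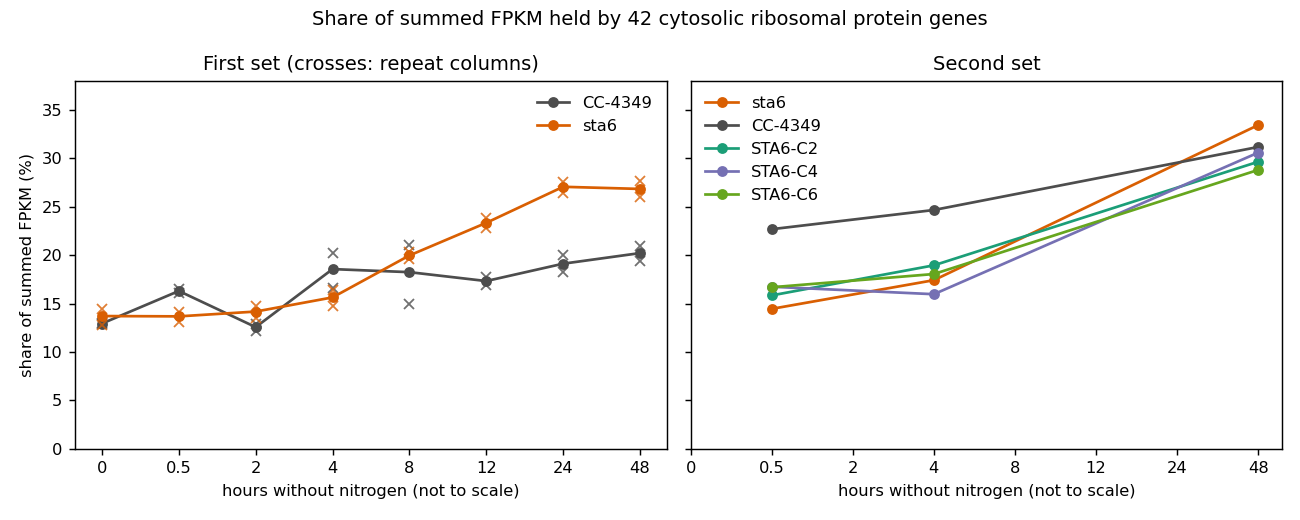
Share of summed FPKM held by the 42 genes (%, linear axis from 0) against hours without nitrogen (evenly spaced categories), with circles for samples and crosses for the pair of first-set columns. First-set sta6 climbs from 13.7% to 27.1% by 24 h, and all 5 second-set strains reach 28.8% to 33.4% at 48 h.

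In the second set the share was lowest in sta6 at 0.5 h, 14.5%, and highest in sta6 at 48 h, 33.4%. Its 4 h value was 17.4%. STA6-C2 stood at 15.8%, 19.0% and 29.7% at the 3 times. STA6-C4 stood at 16.7%, 15.97% and 30.6%, and STA6-C6 at 16.7%, 18.1% and 28.8%. CC-4349 began at 22.7%, stood at 24.7% at 4 h and reached 31.2%. Thus CC-4349 was above the other 4 strains at 0.5 and 4 h, and at 48 h it lay within their range. The rest of the transcripts summed to 567428 FPKM in second-set sta6 at 0.5 h and to 591688 at 48 h, while the 42 genes went from 95924 to 297354. In the other 4 strains the rest went down between these times. It fell from 613847 to 531161 in CC-4349 and from 590649 to 558444 in STA6-C2. In STA6-C4 it fell from 606634 to 570662, and in STA6-C6 from 595613 to 540867.

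In the first set the changes of the averaged pairs were more even among the genes in sta6 than in CC-4349. Within the sta6 pairs, however, the columns differed by an SD across genes of 0.20 at 8 h to 0.27 at 24 h. Within the CC-4349 pairs this SD was 0.052 at 0.5 h to 0.17 at 12 h, except for 0.32 at 4 h and 0.40 at 8 h. From 0 h to 0.5 h the median log2 change of the 42 genes in first-set sta6 was -0.12, with an SD across genes of 0.034 and all 42 below 0. The medians at the later times were -0.064 at 2 h, 0.053 at 4 h, 0.47 at 8 h, 0.78 at 12 h, 1.10 at 24 h and 1.06 at 48 h. The SD across genes grew from 0.050 at 2 h to 0.17 at 48 h. Every one of the 42 was above its 0 h level at 8, 12, 24 and 48 h. The SD over all 15411 genes compared was 0.80 to 1.29 at these times, a set that holds many low genes and was not matched for level. Their median change in sta6 was 0.034 at 0.5 h and 0.37 to 0.38 from 2 h on, so the 42 genes lay below it up to 4 h and above it from 8 h.

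The second set showed no such order of the strains. From 0.5 to 48 h the SD across the 42 genes was 0.23 in sta6, 0.19 in CC-4349, 0.22 in STA6-C2, 0.19 in STA6-C4, with 0.24 in STA6-C6. From 0.5 to 4 h it was 0.17 in sta6, 0.11 in CC-4349, 0.15 in STA6-C2, 0.20 in STA6-C4, with 0.087 in STA6-C6.

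First-set CC-4349 showed a different course. Its medians were 0.39 at 0.5 h, -0.18 at 2 h, 0.60 at 4 h, 0.41 at 8 h, 0.29 at 12 h, 0.47 at 24 h and 0.62 at 48 h. The SD across genes was 0.33 at 0.5 h, 0.22 at 4 h and 0.24 at 8 h, the times with the columns that stand apart, and 0.075 at 2 h and 0.14 to 0.19 from 12 h on. At 2 h, 40 of the 42 were below their 0 h level, and at 48 h all 42 were above it. The median of all 15411 genes compared was 0.41 at 0.5 h, 0.63 at 2 h, 0.62 at 4 h, 0.66 at 8 h, 0.64 at 12 h, 0.58 at 24 h and 0.59 at 48 h. The median of the 42 genes was below that of all genes at each of these times except 48 h.

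**Figure D3:**
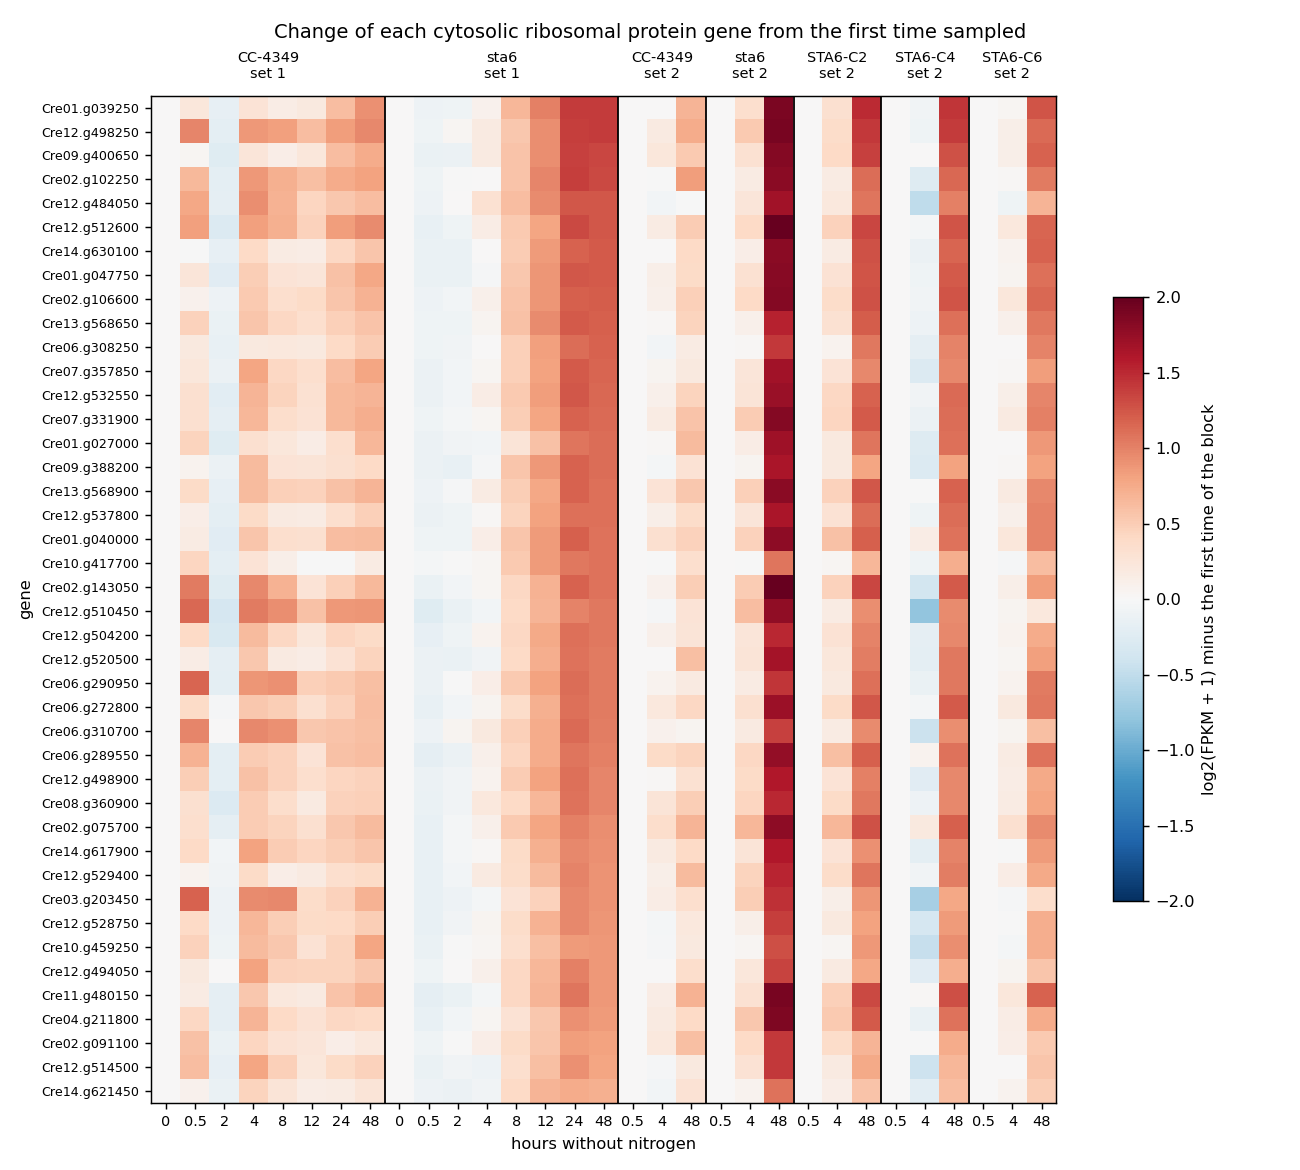
Log2(FPKM + 1) of each gene minus its value at the first time of the block (0 h in set 1, 0.5 h in set 2), with genes in rows by their first-set sta6 change to 48 h and samples in columns by hour. The sta6 block of set 1, averaged over pairs of columns, is even from gene to gene. Its 48 h column lies between 0.71 and 1.40.

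Cre01.g039250 had the largest change in first-set sta6. Its level there was 1769 FPKM at 0 h, 1645 at 0.5 h, 1669 at 2 h, 1868 at 4 h, 2811 at 8 h, 3539 at 12 h, 4664 at 24 h and 4668 at 48 h. In first-set CC-4349 it was 1604, 1870, 1430, 1929, 1775, 1845, 2471 and 3025 FPKM at the same times. In each strain the 24 and 48 h values lay above all values of that strain up to 12 h.

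Cre14.g621450 had the smallest change in first-set sta6. The values were 2167 FPKM at 0 h, 2023 at 0.5 h, 2001 at 2 h, 2058 at 4 h, 2842 at 8 h, 3465 at 12 h, 3611 at 24 h and 3535 at 48 h. In CC-4349 it was 2124 FPKM at 0 h, peaked at 2897 at 4 h and stood at 2529 at 48 h. The sta6 values from 12 h on lay above every earlier sta6 value, while in CC-4349 the 48 h value lay below those at 4 and 8 h. This order is that of averaged pairs, and the CC-4349 columns differed at both times. The second 4 h column minus the first was -0.70 on the log2 scale, and the first 8 h column minus the second was 0.30.

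Each time was tested against 0 h with both strains as the values per time, by limma on log2(FPKM + 1) with Benjamini-Hochberg adjustment over 15108 genes and a threshold of 0.05. None of the 42 passed at 0.5 h (20.9% of all tested genes passed), 2 h (54.5%), 4 h (48.8%), 8 h (47.4%) or 12 h (49.1%). At an unadjusted p under 0.05 the counts were 0, 0, 0, 0 and 1. The fitted medians of the 42 were 0.12, -0.11, 0.34, 0.43 and 0.55, with a median SE of 0.31. At 2 h the fitted changes ran from -0.23 in Cre12.g510450, -0.20 in Cre12.g504200 and -0.18 in Cre01.g047750 to -0.039 in Cre06.g272800, 0.0098 in Cre12.g494050 and 0.027 in Cre06.g310700.

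At 24 h 15 of the 42 rose (35.7%, against 37.8% of all tested genes called higher), and at 48 h 21 rose (against 37.9%), with 14 shared by both times. The share at 24 h was near the background. At 48 h the fitted rise was 1.17 ± 0.374 (SE, limma adjusted p = 0.0244) in Cre12.g498250, 1.16 ± 0.306 (limma adjusted p = 0.0110) in Cre01.g039250 and 1.09 ± 0.345 (limma adjusted p = 0.0236) in Cre12.g512600. The smallest fitted changes, which did not pass, were 0.48 in Cre14.g621450, 0.51 in Cre02.g091100 and 0.62 in Cre10.g417700.

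These first-set calls depended on scaling and on the libraries that stand apart. The median of all tested genes shifted by 0.52 at 48 h, and relative to equal library medians the 42 genes had a median change of 0.30 with none called at 24 or 48 h. Without CC-4349 at 0.5, 4 and 8 h, 39 of the 42 were called higher at each of these times, and 18 at 12 h. In that setting 42.9% of all tested genes were called higher at 24 h, 42.8% at 48 h and 43.6% at 12 h, so the 12 h count was near the background. Early fitted medians flipped sign with equal medians: they were -0.13 at 0.5 h, -0.13 at 4 h and -0.10 at 8 h. With quantile normalization the fitted median at 2 h turned to 0.17. The first repeat column alone gave fitted medians of 0.502 at 4 h and 0.655 at 8 h, and the second gave 0.165 and 0.197.

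The late phase (12, 24 and 48 h) was compared with the middle phase (2, 4 and 8 h) in each first-set strain. In sta6 the 42 genes had a median difference of 0.83, from 0.56 to 1.04, and all 42 were positive with an unadjusted p under 0.05. None passed limma's adjustment, where adjusted p ran from 0.0809 to 0.135 and 0.147% of all tested genes passed in either direction. Leaving out the 8 h libraries gave 38 calls, where 14.3% of all tested genes were called higher. Leaving out the 12 h libraries gave 5 (Cre01.g027000, Cre01.g039250, Cre06.g308250, Cre09.g400650 and Cre14.g630100), where 1.78% were. Quantile normalization gave sta6 a median of 0.18, with 36 genes positive and 8 at an unadjusted p under 0.05. With the reported scaling the CC-4349 median was 0.17, none passed (5.73% of all tested genes did) and none had an unadjusted p under 0.05.

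The difference between the strains in this phase change had a median of 0.64, with all 42 positive. None passed (0.00667% of all tested genes did, which is 1 gene), and 9 had an unadjusted p under 0.05. The first repeat column alone gave a median of 0.95, with 28 genes at an unadjusted p under 0.05. The second gave 0.31, with none. Equal medians gave 0.67, with 18, and quantile normalization gave 0.079, with 2 and only 32 genes positive. Without CC-4349 at 4 and 8 h, its middle phase is the 2 h library alone, the time of its lowest levels, and is assumed to vary like the other groups. The CC-4349 median was then 0.63, and the median difference between strains was 0.18. Leaving out 1 time in both strains gave medians of 0.76 without 2 h, with 34 genes at an unadjusted p under 0.05, 0.43 without 4 h, with none, and 0.74 without 8 h, with 8. None of the 42 was called for the difference between the strains with single repeat columns, other scalings or 1 time left out.

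The second set followed 5 strains over 3 times. From 0.5 to 4 h the median log2 change of the 42 genes was -0.13 in STA6-C4, 0.072 in STA6-C6, 0.096 in CC-4349, 0.29 in STA6-C2 and 0.30 in sta6. From 4 to 48 h it was 1.34 in sta6, 1.21 in STA6-C4, 0.78 in STA6-C2, 0.78 in STA6-C6 and 0.30 in CC-4349. The whole change from 0.5 to 48 h was 1.68 in sta6, a 3.20-fold rise of the median gene, 1.08 in STA6-C2, 1.07 in STA6-C4, 0.86 in STA6-C6 and 0.41 in CC-4349.

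Over all tested genes the median change from 0.5 to 48 h lay between -0.22 in sta6 and 0.13 in CC-4349. All 42 genes were higher at 48 h than at 0.5 h in sta6 and the 3 rescued strains, and 41 were in CC-4349. The exception there, Cre12.g484050, measured 4482 FPKM at 0.5 h, 4300 at 4 h and 4475 at 48 h.

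**Figure D4:**
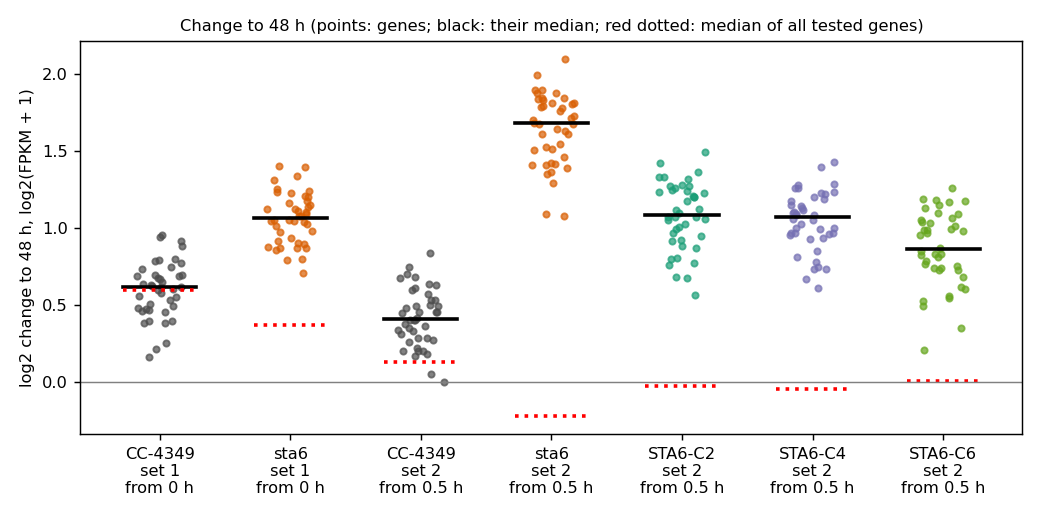
Log2 change to 48 h of each of the 42 genes (points, spread sideways for visibility) by strain and set, from 0 h in set 1 and 0.5 h in set 2, with black lines for their median and red dotted lines for the median of all tested genes. In set 2 the medians of the 42 genes run from 0.41 in CC-4349 to 1.68 in sta6, and in first-set CC-4349 the black and red lines nearly coincide at 0.62 and 0.59.

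Tested over the 5 second-set strains with strain as a block, none of the 42 changed from 0.5 to 4 h (22.4% of all tested genes did), and 1 had an unadjusted p under 0.05. That gene, Cre02.g075700, had the largest fitted change, 0.44 ± 0.150 (SE, limma adjusted p = 0.0560). Next were 0.35 in Cre01.g040000 and 0.33 in Cre06.g289550, and at the other end -0.090 in Cre10.g459250, -0.041 in Cre12.g484050 and -0.026 in Cre06.g308250. These values do not show that the genes stayed level.

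At 48 h all 42 rose, both against 0.5 h (29.3% of all tested genes were called higher) and against 4 h (23.8%). The median fitted rise was 1.04 against 0.5 h, from 0.61 to 1.35, and 0.88 against 4 h, from 0.57 to 1.22. Equal medians left both counts at 42, and leaving out any 1 strain left 41 or 42. Quantile normalization gives every library the same set of ranked values. It gave 25 and 16 called higher, where 32.5% and 31.4% of all tested genes were. The medians of the 42 were 0.25 and 0.13, and Cre14.g621450 was called lower at 48 h than at 0.5 h (-0.19). Between 21 and 35 of these genes stood in the top 50 ranks of each second-set library, and how much that shaped these counts was not tested.

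The largest second-set rise was in Cre01.g039250. At 0.5 h it measured 1848 FPKM in sta6, 3791 in CC-4349, 2208 in STA6-C2, 2340 in STA6-C4, with 2338 in STA6-C6. At 48 h the values were 6788, 6046, 6222, 6280 and 5589 FPKM in the same order. The 48 h values lay above all 0.5 h values with no overlap, and the strains were closer together than at 0.5 h. The fitted change was 1.35 ± 0.155 (SE, limma adjusted p = 2.24e-05).

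Cre12.g498250 followed with 1.32 ± 0.156 and Cre11.g480150 with 1.27 ± 0.158. The smallest rise was in Cre14.g621450, from 2400 FPKM in sta6, 4124 in CC-4349, 2656 in STA6-C2, 2875 in STA6-C4, with 2674 in STA6-C6 at 0.5 h. At 48 h it stood at 5118, 5016, 3929, 4394 and 3769 FPKM in the same order. Here the groups overlapped, since CC-4349 at 0.5 h exceeded STA6-C2 and STA6-C6 at 48 h, although each strain rose. Its fitted change was 0.61 ± 0.130 (SE, limma adjusted p = 0.00162), and those of Cre10.g417700 and Cre12.g514500 were 0.68 and 0.72. Cre14.g621450 and Cre10.g417700 were also among the 3 smallest changes at 48 h in the first set, and Cre01.g039250 and Cre12.g498250 among the 3 largest.

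Strains of the second set were compared over their 3 times. Between sta6 and the rescued strains none of the 42 differed (0.741% of all tested genes did), and none had an unadjusted p under 0.05. The differences ran from -0.11 to 0.11 with a median of -0.0087 and SEs from 0.114 to 0.235. This median averages times that differed: without the 48 h libraries it was -0.18, with all 42 below 0 and 3 at an unadjusted p under 0.05. Without the 0.5 h libraries it was 0.13, with all 42 above 0, and none was called in either. Against CC-4349, 9 of the 42 were lower in sta6 (21.4%, against 15.6% of all tested genes) and 24 were lower in the rescued strains (57.1%, against 16.3%). All 9 were among the 24, and both contrasts share the CC-4349 libraries. All 42 fitted differences were below 0 in both, with medians of -0.47 and -0.45. Most of these calls were lost when any 1 rescued strain was left out, with 1 to 3 genes lower in sta6 and 6 to 7 lower in the rescued strains. Of all tested genes, 11.9% to 13.0% and 11.7% to 13.1% were then called lower. Equal medians gave 1 and 7, where 14.0% and 16.7% of all tested genes were called lower, so neither count stood above the background.

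Cre02.g091100 differed most from CC-4349. In CC-4349 it measured 3508 FPKM at 0.5 h, 4050 at 4 h and 5298 at 48 h. In sta6 it measured 1670, 2210 and 4457 FPKM, and in the rescued strains it ran from 1998 to 2144 at 0.5 h, 2066 to 2575 at 4 h and 3078 to 3504 at 48 h. CC-4349 was thus above the other 4 strains at each time. The fitted difference was -0.73 ± 0.160 (SE, limma adjusted p = 0.00440) in sta6 and -0.75 ± 0.131 (limma adjusted p = 0.000664) in the rescued strains.

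The other named differences in sta6 were -0.57 in Cre12.g529400, -0.55 in Cre11.g480150, -0.54 in Cre02.g102250 and -0.53 in Cre01.g039250. Those in the rescued strains were -0.60 in Cre09.g388200, -0.58 in Cre02.g102250, -0.56 in Cre01.g040000 and -0.55 in Cre04.g211800. The times mattered: without the 48 h libraries 41 genes were lower in sta6 and 40 in the rescued strains, whereas without those of 0.5 or 4 h the counts were 0 in sta6 and 1 in the rescued strains. Of all tested genes, 15.96% and 16.3% were called lower in sta6 and in the rescued strains without the 48 h libraries. These shares were 10.6% and 11.7% without the 0.5 h libraries, and 5.78% and 7.54% without the 4 h libraries. With the first set added, 11 pairs of sta6 and CC-4349 samples gave a median difference of 0.077 with none called. CC-4349 levels themselves differed between the sets. The median log2 difference across the genes, second set minus first, was 0.79 at 0.5 h, 0.59 at 4 h and 0.95 at 48 h. For sta6 it was 0.17, 0.26 and 0.62.

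The change over time was then compared between strains. CC-4349 and sta6 each have 1 library per time in this set, so the spread in these tests comes from the rescued strains, and a difference of a strain cannot be told apart from one of its libraries. For CC-4349 against the rescued strains this test was chosen after the values were seen. From 0.5 to 48 h, 15 of the 42 rose less in CC-4349 than in the rescued strains (35.7%, against 10.8% of all tested genes called lower). The difference had a median of -0.61 and was below 0 in all 42, while the median of all tested genes was 0.21. Leaving out STA6-C4 gave 25 calls, where 11.9% of all tested genes were called lower. Leaving out STA6-C2 gave 4 (Cre01.g047750, Cre06.g290950, Cre06.g308250 and Cre14.g630100), where 8.87% were. Leaving out STA6-C6 gave 3, the same genes without Cre01.g047750, where 8.15% were. The counts of 4 and 3 were near the background. From 0.5 to 4 h none differed (1.54% of all tested genes did; none of the 42 had an unadjusted p under 0.05), and the median difference was 0.016.

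Cre06.g290950 is an example. In CC-4349 it measured 5024 FPKM at 0.5 h, 5275 at 4 h and 5682 at 48 h. In the rescued strains it went from 3374 to 7216 FPKM in STA6-C2, from 3638 to 7550 in STA6-C4 and from 3315 to 6809 in STA6-C6 between 0.5 and 48 h. CC-4349 was the higher at 0.5 h and the lower at 48 h, and the difference of changes was -0.89 ± 0.200 (SE, limma adjusted p = 0.00829). The others of the 5 largest were -0.92 in Cre12.g484050, -0.85 in Cre06.g308250, -0.81 in Cre01.g047750 and -0.81 in Cre14.g630100.

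For sta6 against the rescued strains, 2 of the 42 rose more in sta6 from 0.5 to 48 h (4.76%, against 4.52% of all tested genes called higher), a share near the background. All 42 differences were positive, with a median of 0.63, against -0.18 for all tested genes, and 34 had an unadjusted p under 0.05. The 2 genes were Cre09.g388200, with 0.82 ± 0.226 (SE, limma adjusted p = 0.0436), and Cre02.g091100, with 0.77 ± 0.221 (limma adjusted p = 0.0497). In sta6 Cre09.g388200 went from 2224 to 6864 FPKM, and in the rescued strains from 2448 to 2711 at 0.5 h to between 4263 and 4742 at 48 h. Leaving out STA6-C2 or STA6-C6 gave no call, where 3.14% and 1.68% of all tested genes were called higher. Leaving out STA6-C4 gave 25, where 6.44% were. From 0.5 to 4 h none differed (2.51% of all tested genes did; none of the 42 had an unadjusted p under 0.05), and the median was 0.23.

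The genes moved together to different degrees in different samples. Across the 8 first-set sta6 samples the median Pearson's r between pairs of the 42 genes was 0.994 and the lowest 0.942. Across the 15 second-set samples these were 0.972 and 0.766. Across the 8 first-set CC-4349 samples, which include the columns that stand apart, they were 0.870 and 0.198. Without 0.5, 4 and 8 h, the other 5 CC-4349 samples gave 0.973 and 0.668. These values describe genes that share libraries and their scaling, and carry no test.

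Against the median of the other members over all 31 samples, r was highest in Cre12.g537800 (0.994), Cre06.g272800 (0.992) and Cre12.g498900 (0.991). It was lowest in Cre12.g510450 (0.634), Cre03.g203450 (0.838) and Cre14.g630100 (0.873). Over the 28 samples without first-set CC-4349 at 0.5, 4 and 8 h, the values were 0.726, 0.873 and 0.889 in these 3, still the lowest of the 42. Cre12.g510450, the least abundant of the 42, had an r of 0.996 within first-set sta6, where it measured 530 FPKM at 0 h, 450 at 0.5 h, 485 at 2 h, 509 at 4 h, 698 at 8 h, 850 at 12 h, 1061 at 24 h and 1098 at 48 h. In first-set CC-4349 it went from 400 FPKM at 0 h to 885 at 0.5 h, 317 at 2 h, 825 at 4 h, 765 at 8 h, 602 at 12 h, 728 at 24 h and 739 at 48 h. In the second set it fell short of its first-set levels: it was lower than in the first set in all 6 samples that both sets share by strain and time, by a log2 difference of -0.71 in sta6 at 0.5 h and -0.048 in CC-4349 at 48 h, while the median of the 42 was higher in all 6.

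STA6-C4 at 4 h held the lowest value of Cre12.g510450 in the study, 267 FPKM, after 464 at 0.5 h. In that strain the gene changed by -0.79 from 0.5 to 4 h, against a median of -0.13 for the 42, and then by 1.74 to 48 h. In STA6-C6 it went from 487 FPKM at 0.5 h to 508 at 4 h and 562 at 48 h, a change of 0.21 against a median of 0.86.

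Outside the list, 29 of 15369 tested genes had an r above 0.9 with the median profile of the 42 over the 31 samples. The 10 most alike were Cre13.g595250 (r of 0.993), Cre12.g529650 (0.989), Cre13.g599400 (0.985), Cre01.g011000 (0.983), Cre16.g660200 (0.982), Cre13.g573351 (0.981), Cre02.g115200 (0.980), Cre10.g456200 (0.979), Cre17.g701200 (0.977) and Cre02.g101350 (0.975). Over the 28 samples 31 genes had an r above 0.9, and 9 of these 10 stayed among the 10 most alike. All 10 were abundant, with mean levels from 1664 to 4540 FPKM. No source used here gives their products.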

How the data were processed

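The 31 Chlamydomonas RNA samples were taken from a deposited table of 17301 genes in 47 columns. Its values are read as FPKM as deposited; the header states no unit, and RPKM would look alike. The submitters' processing notes list Bowtie; version, genome build, counter, filters and sample depth: not given in the sources used here. Groups and sets follow the strain, time and library code in the labels. The pair of columns of each first-set sample was averaged. The loci, lists and tests were chosen with earlier results of these data known.

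All genes reaching 1 FPKM in 3 or more of the fitted libraries were tested with limma 3.58.1 (trend, robust; R 4.3.3) on log2(FPKM + 1), with Benjamini-Hochberg adjustment over all tested genes and a threshold of 0.05. This scale understates fold changes of low genes; all 42 members passed the filter. The fits were first tested on simulated data. Descriptions used Python 3.11.15, numpy 2.4.6 and pandas 2.3.3.

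Named members were the 3 extremes of level, of likeness and of change at 2 and 48 h (first set) and 4 and 48 h (second set), up to 5 called members per strain contrast, and the 10 most alike other genes. Other named members were chosen after their values were seen. Lists of plastid ribosomal proteins and translation factors need annotation and were not used here. Alternatives were other scalings, pseudocounts, filters and fits, single repeat columns, no strain term, and left-out strains, times or libraries; leaving out CC-4349 libraries of the first set was chosen after seeing the data.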

Additional observations from a re-analysis of the deposited data

Results flagged for a closer look

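In the first set the change of the 42 genes between 0 and 0.5 h had opposite signs in the strains. The median log2 change was 0.39 in CC-4349, with 41 genes up, and -0.12 in sta6, with all 42 down. Over all genes compared the median was 0.41 in CC-4349 and 0.034 in sta6, so the 42 genes lay close to it in CC-4349. The difference was not tested, and both 0.5 h columns of CC-4349 are among those that stand apart in their pattern among genes.

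In the second set STA6-C4 went down from 0.5 to 4 h while the other strains went up. Its median was -0.13, against 0.29 in STA6-C2, 0.072 in STA6-C6, 0.30 in sta6 and 0.096 in CC-4349. This difference was not tested either.

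Changes from 0.5 to 48 h that differed from those of the rescued strains by the test of the difference (limma) were larger in sta6 for Cre09.g388200 (0.82) and Cre02.g091100 (0.77). These are 4.76% of the 42, against 4.52% of all tested genes called higher, and neither was called without STA6-C2 or without STA6-C6. They were smaller in CC-4349 for 15 genes, against 10.8% of all tested genes called lower, of which the 5 with the largest differences were Cre12.g484050 (-0.92), Cre06.g290950 (-0.89), Cre06.g308250 (-0.85), Cre01.g047750 (-0.81) and Cre14.g630100 (-0.81). Cre12.g484050 was not called without STA6-C2 or without STA6-C6.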

How the results depend on the processing

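Of 221 alternative counts of called members, 171 stayed within 1.5 times the reported count, 17 were larger and 33 smaller; where no value is given for the cause, the cause was not tested. Quantile normalization gave 2, 3, 10, 17 and 20 calls at 0.5, 2, 4, 8 and 12 h in the first set and 10 at 4 h in the second, where the reported counts were 0. The shares of all tested genes then called higher were 8.56%, 22.3%, 18.6%, 17.9% and 20.0% for these times and 12.5% for the second set, and the 2 h median turned from -0.11 to 0.17. It gave 25 rises at 48 h against 0.5 h and 16 against 4 h, where 32.5% and 31.4% of all tested genes rose. It gave 3 genes lower in sta6 and 10 lower in the rescued strains than in CC-4349, where 15.3% and 17.8% were called lower. The counts were 0 for the change in sta6 (5.22% called higher) and 2 for that in CC-4349 (15.5% called lower). Quantile normalization also turned the 48 h change of Cre14.g621450 (-0.19), Cre10.g417700 (-0.14) and Cre12.g514500 (-0.067). Equal medians gave 0 rises at 24 and at 48 h in the first set, 1 gene lower in sta6 and 7 lower in the rescued strains. The shares of all tested genes called in these directions were then 17.5%, 17.4%, 14.0% and 16.7%. The first repeat column alone gave 9 and 7 rises at 24 and 48 h, where 29.7% and 28.4% of all tested genes were called higher. No strain term gave 1 and 2, where 20.8% and 20.9% of all tested genes were called higher. With equal medians, the first repeat column alone or no strain term, the share of the 42 called was not above the background in any of these cases.

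Without CC-4349 at 0.5, 4 and 8 h the calls were 18 at 12 h, 39 at 24 h and 39 at 48 h, where 43.6%, 42.9% and 42.8% of all tested genes were called higher. Without CC-4349 at 4 and 8 h its late rise had a median of 0.63. Without the 0.5 h or the 4 h libraries 0 genes were lower in sta6 and 1 in the rescued strains, and without the 48 h libraries 41 and 40. The shares of all tested genes called lower were 10.6% and 11.7% without 0.5 h and 5.78% and 7.54% without 4 h. Without 48 h they were 15.96% and 16.3%. The 11 pairs of both sets gave 0 calls, a median of 0.077 and positive differences in Cre02.g091100 (0.18), Cre02.g102250 (0.20) and Cre01.g039250 (0.15). For the 0.5 to 48 h change in sta6, pseudocounts of 0.1 and 5 gave 1 call each, and no filter and a fit without trend gave 0. In these settings 2.32% to 4.31% of all tested genes were called higher.

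Leaving out 1 time at a time gave 0 to 38 calls for the late rise in sta6. Leaving out 1 strain at a time gave 0 to 1 at 4 h in the second set, 1 to 3 genes lower in sta6, 6 to 7 lower in the rescued strains, 0 to 25 for the change in sta6 and 3 to 25 for that in CC-4349. Beside the genes lower in sta6 and in the rescued strains, 11.9% to 13.0% and 11.7% to 13.1% of all tested genes were called lower. For the change in sta6, 1.68% to 6.44% were called higher, and for that in CC-4349, 8.15% to 11.9% were called lower. In the first set, leaving out a strain would leave no residual degrees of freedom. Depth is not given, so its part in the precision was not tested.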

Other observations

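The table held Cre12.g535850, whose ID is next to that of the absent locus Cre12.g535851. It was not counted among the 42 and was looked up after its values were seen. Its r with the median profile of the 42 was 0.974 over the 31 samples, the 11th highest among the other genes, and its mean level was 2233 FPKM.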
